A study of Citrus trifoliata with 2 samples.

Results

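Myrcene synthase transcripts were examined in the buds of trifoliate orange, Citrus trifoliata, a close relative of the cultivated citrus species. Of 35775 unigenes, which are transcript models assembled from reads, 7 had as their Swiss-Prot best hit the chloroplast myrcene synthase of holm oak (entry MYRS_QUEIL). These 7 are the members described here, and the table's identifiers (Unigene23535_All, Unigene33036_All and so on) are given without their ending. The members were chosen by this annotation, and the entry itself was selected on the mutant to wild-type ratios of Unigene23535_All (208 against 11 reads) and Unigene33036_All (0 against 33 reads), already known from the same libraries to be opposite. The members' levels and ratios are therefore a description and carry no test.

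The mutant library came from the precocious, early-flowering trifoliate orange and the wild-type library from the normal cultivar. Each group was 1 library, so nothing below separates a difference between genotypes from one between trees or preparations, and the labels do not say how many trees were pooled. Both libraries were made from untreated 2-year-old trees, from the terminal bud and the 5 buds below it on spring flushes, collected after the shoot tips had been shed and flowers were being initiated. Poly(A) RNA was sequenced, and in units of 1000 reads the library totals were 10037 (mutant) and 9995 (wild type). In whole buds, fewer cells of a type and less RNA per cell cannot be told apart.

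Myrcene synthase belongs to the terpene synthase family. It acts in the plastid on geranyl diphosphate, the common precursor of monoterpenes, and releases myrcene, an acyclic scent and resin compound. In citrus, monoterpenes are known as main constituents of the oil stored in secretory cavities of leaf, bud and fruit peel. The product of a terpene synthase can differ between close relatives, so a best hit to the oak enzyme places a unigene in the family without fixing what it makes.

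The members differed in length and in how well they matched the oak protein. Unigene23535 was the longest at 1741 bases and had the best match, with an E-value (the number of hits as good that chance would give) of 1e-180. Unigene36442 followed with 895 bases and 3e-90, then Unigene33036 with 758 bases and 3e-56, and Unigene30654 with 540 bases and 1e-46. The shortest were Unigene21708 with 460 bases and 3e-25, Unigene27429 with 354 bases and 2e-26, and Unigene30017 with 235 bases and 1e-10. The table gives no sequence or genome position, so pieces of 1 transcript, alleles and separate gene copies cannot be told apart. None of the 7 had a further annotation in the table's other 4 collections (Nr, COG, KEGG and GO), and nor had any of the other 14 terpene synthase unigenes in the table, whereas 69.7% of all unigenes with a Swiss-Prot hit had at least 1.

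Levels are given as raw reads and as RPKM, in which the reads are divided by the library total and by the unigene's length, so that levels of different unigenes can be compared. Folds were computed from reads and library totals, and the exact 95% interval after each covers counting error only. The main ratio is log2((mutant RPKM + 1) / (wild-type RPKM + 1)), which understates differences of low unigenes. A log2 ratio of 1 or more in either direction is called 2-fold.

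The members with more reads in the mutant library were Unigene23535, Unigene21708 and Unigene27429. Unigene23535 had 208 mutant reads (11.9 RPKM) against 11 wild-type reads (0.632 RPKM), an 18.8-fold higher level (10.3 to 38.3) and a log2 ratio of 2.98. It was the member with the most reads, and its counting intervals in the libraries, 10.3 to 13.6 RPKM and 0.316 to 1.13 RPKM, did not overlap. Unigene21708 had 22 reads (4.76 RPKM) against 3 reads (0.652 RPKM), 7.3-fold higher (2.19 to 38.1) with a log2 ratio of 1.8. The wild-type count of Unigene21708 was no more than the floor of 3 reads used here for a library with none, which leaves its fold loosely bounded. Unigene27429 had 14 reads (3.94 RPKM) against 8 reads (2.26 RPKM), a 1.74-fold ratio whose interval of 0.682 to 4.79 included 1. Its difference was not detectable at this depth.

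The other 4 members had fewer reads in the mutant library. Unigene36442 had 5 mutant reads (0.557 RPKM) against 59 wild-type reads (6.6 RPKM), 11.8-fold lower (4.8 to 37.8) with a log2 ratio of −2.29. It carried the highest level of any member in the wild-type library. Unigene33036 had 33 wild-type reads (4.36 RPKM) but 0 mutant reads, which made it 11-fold lower when 3 reads were put in place of 0. The exact interval of this difference began at 8.49-fold, and the log2 ratio was −2.42. The exact interval of its 0 mutant reads reached 0.485 RPKM, below the 3 RPKM at which its wild-type interval began.

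Unigene30654 had 9 reads (1.66 RPKM) against 23 reads (4.26 RPKM), 2.57-fold lower (1.14 to 6.3), and its log2 ratio of −0.98 fell just short of the 2-fold threshold. Unigene30017, the shortest member, had 0 reads against 4 reads (1.7 RPKM). Its log2 ratio of −1.43 passed the threshold, but it was only 1.34-fold lower against the floor. Its exact lower limit of 0.663 meant that a difference was not detectable at this depth.

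**Figure D1:**
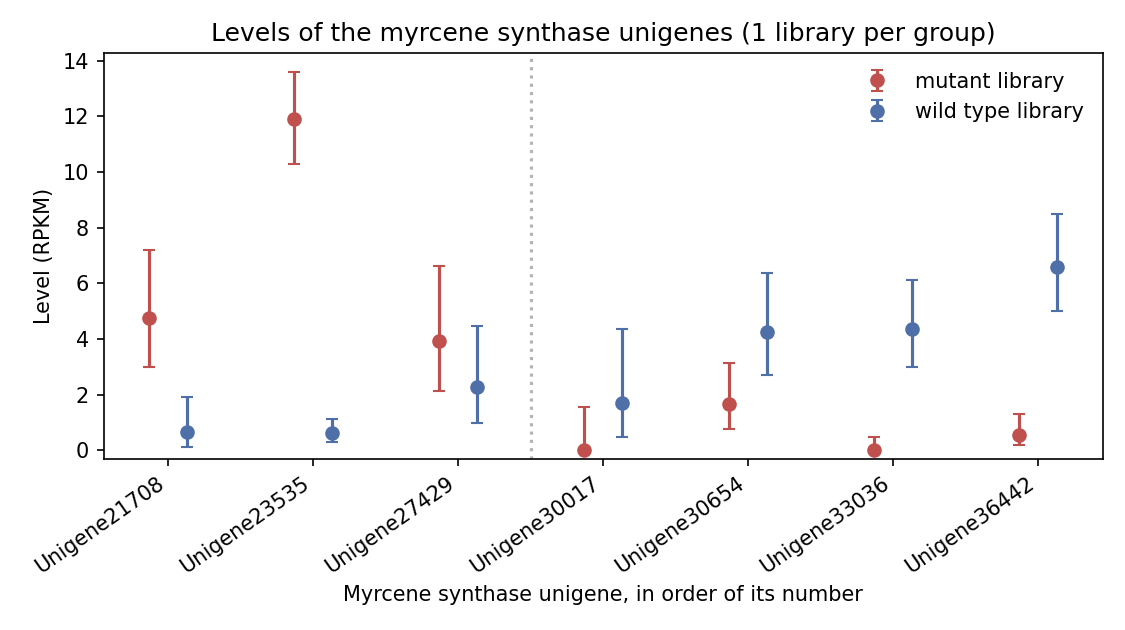
Level of each myrcene synthase unigene in RPKM (vertical axis) in the mutant library (red) and the wild-type library (blue), with exact 95% counting intervals, in order of unigene number from left to right. The 3 unigenes left of the dotted line were higher in the mutant library (Unigene23535 at 11.9 against 0.632 RPKM), and the 4 to the right were lower (Unigene36442 at 0.557 against 6.6 RPKM).

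By the 2-fold threshold, 2 of the 7 members were higher in the mutant library, 3 were lower and 2 lay between. With a pseudocount of 5 in place of 1, 1 was higher and 1 lower. Over all 34255 unigenes kept, which had an RPKM of at least 1 in at least 1 library, 8.61% were higher and 5.31% were lower. All 7 members were among those kept. By the interval, 2 members lay above 1 and 3 below it, beside 19.8% and 14.4% of all kept unigenes. These counts rest on the contrast for which the members were chosen, and nothing is read from them. The median log2 ratio of the members was −0.98, against 0.05 over all kept unigenes.

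The order of the members by level was nearly turned around between the libraries. In the mutant library, Unigene23535 stood first, its interval of 10.3 to 13.6 RPKM above that of every other member. Unigene21708 at 4.76 RPKM (2.99 to 7.21), Unigene27429 at 3.94 RPKM (2.15 to 6.61) and Unigene30654 at 1.66 RPKM (0.759 to 3.15) followed, and the intervals of neighbours in that order overlapped. Unigene36442 came next at 0.557 RPKM (0.181 to 1.3), with an interval that overlapped that of Unigene30654, and Unigene30017 and Unigene33036 had no read.

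In the wild-type library, Unigene36442 stood first at 6.6 RPKM (5.02 to 8.51) and Unigene23535 stood last at 0.632 RPKM (0.316 to 1.13). Between them lay Unigene33036 at 4.36 RPKM (3 to 6.12), Unigene30654 at 4.26 RPKM (2.7 to 6.39), Unigene27429 at 2.26 RPKM (0.976 to 4.46), Unigene30017 at 1.7 RPKM (0.464 to 4.36) and Unigene21708 at 0.652 RPKM (0.135 to 1.91). Every pair of neighbours in this order had overlapping intervals. The ends of the order did not overlap, since the interval of Unigene36442 began at 5.02 RPKM and that of Unigene23535 ended at 1.13 RPKM.

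As shares of all myrcene synthase reads, 1 member dominated the mutant library. Unigene23535 took 80.6% (Clopper-Pearson 95% interval 75.3 to 85.3%) of the 258 member reads there and 7.8% (3.96 to 13.5%) of the 141 member reads in the wild-type library. Unigene36442 took 41.8% (33.6 to 50.4%) of the wild-type member reads and 1.94% (0.632 to 4.46%) of the mutant ones. The wild-type reads were spread more widely, with 23.4% (16.7 to 31.3%) on Unigene33036 and 16.3% (10.6 to 23.5%) on Unigene30654.

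In the mutant library Unigene30654 took 3.49% (1.61 to 6.52%) of the member reads. The 0 counts of Unigene33036 and Unigene30017 there had an exact upper limit of 1.42%. Unigene21708 took 8.53% (5.42 to 12.6%) of the mutant and 2.13% (0.441 to 6.09%) of the wild-type member reads. The share of Unigene27429 was similar in the libraries, at 5.43% (3 to 8.94%) and 5.67% (2.48 to 10.9%).

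**Figure D2:**
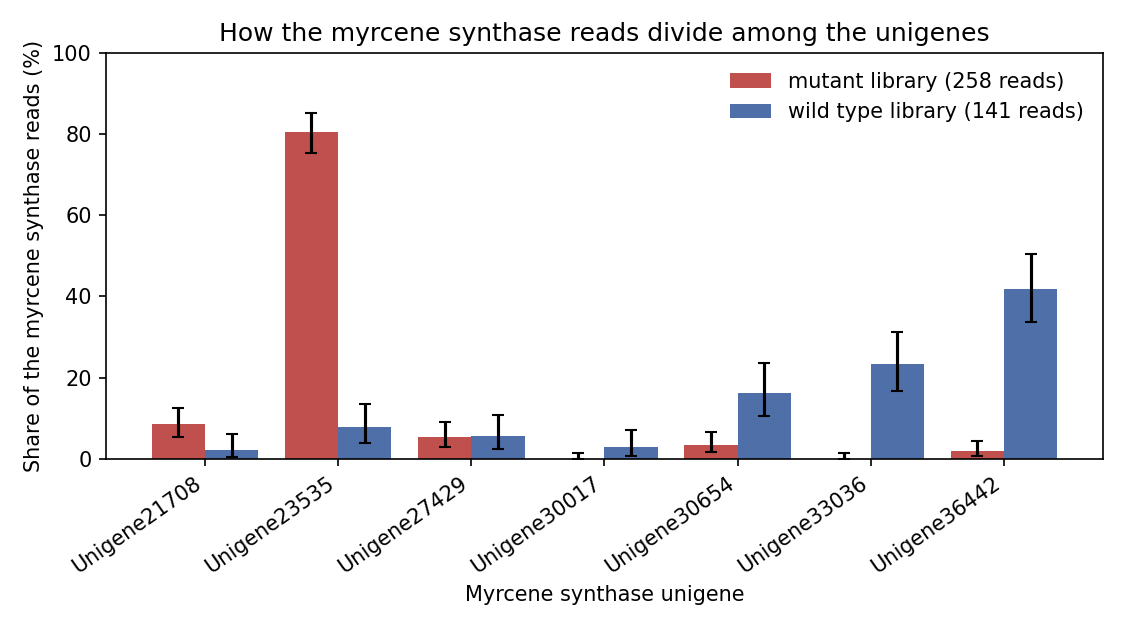
Share of all myrcene synthase reads of a library (vertical axis, percent) that fell on each unigene, for the mutant library (red, 258 reads) and the wild-type library (blue, 141 reads), with exact 95% intervals. Unigene23535 held 80.6% in the mutant and 7.8% in the wild type, and Unigene36442 held 1.94% and 41.8%.

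Summed over the members, myrcene synthase reads were 1.82-fold more numerous in the mutant library (1.48 to 2.25), at 258 against 141. The summed RPKM of 22.8 and 20.5 lay closer together, because most of the mutant reads fell on the longest member. The sum turned on 1 unigene. Without Unigene23535, the other 6 members had 50 mutant reads and 130 wild-type reads, 2.61-fold lower in the mutant library (1.87 to 3.69).

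The direction of a member went with its number in the table. Unigene length along the numbering falls and restarts several times, and pooling the resulting runs, in a way chosen after the ratios had been seen, gave 3 ranges. In numbers 1 to 18200, 1.82% of the kept unigenes were 2-fold higher in the mutant library and 0.544% were lower. In numbers 18201 to 28073, 29.2% were higher, 0.388% were lower and 86.2% had a positive ratio. In numbers 28074 to 36523, 0.823% were higher, 23.1% were lower and 84.2% had a negative ratio. By the interval, 21.1% lay above 1 and 16.2% below it in the lowest range, 31.1% and 1.6% in the middle range, and 2.66% and 25% in the highest range; of the members, 2 of 3 lay above 1 in the middle range and 3 of 4 below 1 in the highest range.

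Depth differed between the ranges as well, with a median of 528 reads over both libraries in the lowest range, 22 in the middle one and 21 in the highest one. None of the members lay in the lowest range. Unigene21708, Unigene23535 and Unigene27429, the 3 with positive ratios, lay in the middle range, and the 4 with negative ratios lay in the highest range. Summed within these ranges, the members had 244 against 22 reads in the middle range (11-fold higher, 7.13 to 18) and 14 against 119 reads in the highest range (8.54-fold lower, 4.89 to 16.1). The part of the numbering in the members' opposite directions was not tested.

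The members' places in the whole table are given as a description, since the entry was selected on the ratios of Unigene23535 and Unigene33036. In all, 16 of the 34255 kept unigenes had a log2 ratio at least as high as that of Unigene23535, itself included, and all 16 were in the middle range, where they made up 0.183%. For Unigene33036, 50 kept unigenes were at least as low, and the 48 of these in the highest range were 0.658% of it. At least as low as Unigene36442 was 0.973% of that range. For the other members, 4.99% of the middle range was at least as high as Unigene21708 and 54% at least as high as Unigene27429, and of the highest range 8.45% at least as low as Unigene30017 and 23.8% at least as low as Unigene30654.

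By reads, among kept unigenes with at least 1 wild-type read, Unigene23535 and 1 other unigene reached both its 208 mutant reads and its fold. Unigenes with 0 wild-type reads were left out of this count. The other was Unigene27895, whose best hit was AHP4, a histidine phosphotransfer protein of cytokinin signalling in Arabidopsis, with 637 against 2 reads. In the opposite direction, 9 unigenes had 0 mutant reads and at least the 33 wild-type reads of Unigene33036, itself included, and all 9 lay in the highest range of numbers. Of all kept unigenes with 0 mutant reads, 315 lay in that range, 12 in the middle range and 0 in the lowest range.

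**Figure D3:**
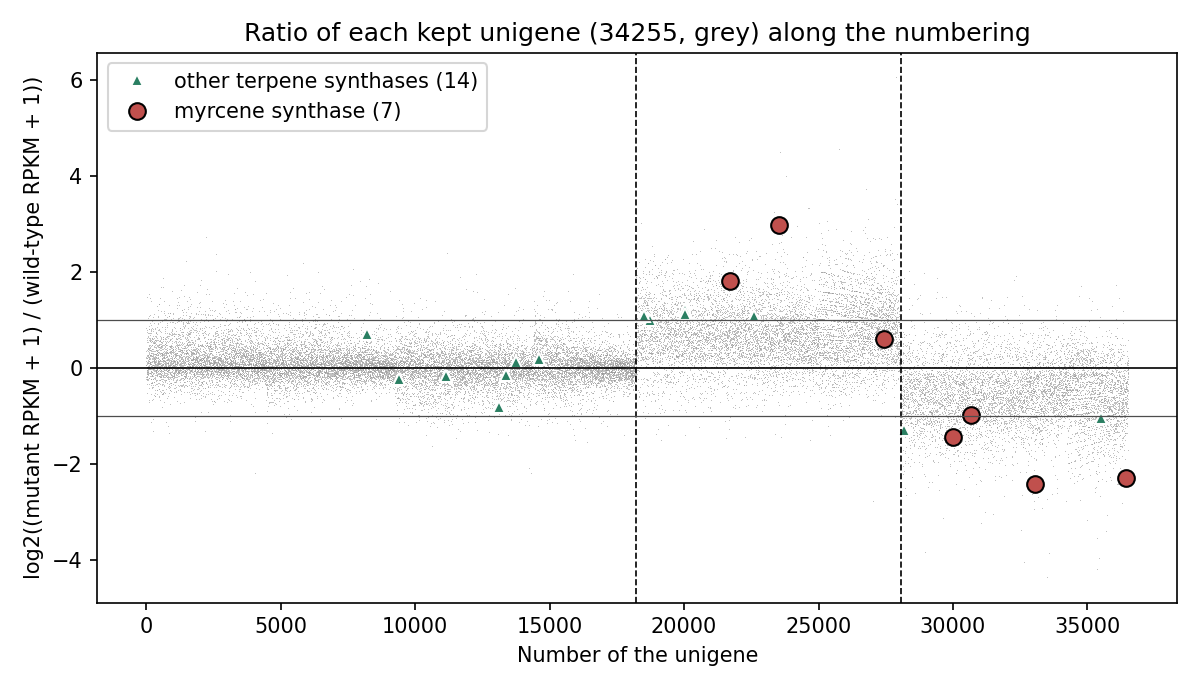
Log2 ratio of mutant to wild-type RPKM, each plus 1 (vertical axis), against the number of the unigene (horizontal axis) for the 34255 kept unigenes (grey), the 7 myrcene synthase unigenes (red circles) and the 14 other terpene synthase unigenes (green triangles). Dashed lines mark the starts of the middle and highest number ranges; the 3 circles above 0 lie in the middle range and the 4 below 0 in the highest range.

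Having 2-fold differences in both directions was not confined to the oak entry. Among Swiss-Prot entries from plants with 5 to 10 kept unigenes, 48 of 356 (13.5%) had at least 1 unigene on each side. The share was 17.7% (44 of 249) among those with unigenes in both the middle and the highest number range, as the myrcene synthase entry has. By the interval, 42.7% of the 356 (152) and 45% of the 249 (112) had unigenes on both sides of 1. By the 2-fold threshold, MYRS_QUEIL was the 1 entry of the 356 with at least 2 unigenes on each side, a criterion chosen after its values were seen. Over the 2560 plant entries with at least 2 kept unigenes, 11 met it, and the other 10 had between 14 and 59 kept unigenes.

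The unigenes most like each member were sought by distance in log2(RPKM + 1) over the 2 libraries, among kept unigenes with a plant best hit. Nearest to Unigene23535 were Unigene23649, matching the cytokinesis syntaxin KNOLLE (101 against 6 reads, distance 0.29), Unigene22433, matching Patellin-4 (98 against 7, distance 0.31), and Unigene27929, matching the wall protein extensin (143 against 5, distance 0.32). These 3 lay in the middle range of numbers. Nearest to Unigene36442 were Unigene36126 and Unigene36389, both matching beta-D-xylosidases of the cell wall (2 against 27 and 3 against 46 reads, distances 0.12 and 0.13), and Unigene34413, matching cytochrome P450 71A1 (1 against 12, distance 0.16).

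Unigene33036 was nearest to Unigene31033, matching a plastid RNA polymerase subunit (0 against 10 reads, distance 0.056), Unigene35688, matching the disease resistance protein RGA3 (0 against 12, distance 0.059), and Unigene34801, matching a pentatricopeptide repeat protein (0 against 9, distance 0.088). Unigene21708 was nearest to unigenes matching the spindle checkpoint protein MAD2, Nudix hydrolase 17 and Nucleobase-ascorbate transporter 1, at distances of 0.027 to 0.067. For Unigene30017 they matched PTBP3, phosphatase 2C 46 and the receptor-like kinase CRK31, at 0.012 to 0.024. Those of Unigene27429 (PP301, the kinase At1g01540 and AtMg00310, at 0.0054 to 0.018) and of Unigene30654 (PP268, nepenthesin-2 and DOF3.3, at 0.0055 to 0.036) included 1 unigene each from the lowest range. With 2 libraries, many unigenes share a similar pair of levels.

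Beside the 7 members, 3 unigenes matched other monoterpene synthases. Unigene13125, matching the linalool synthase of Arabidopsis, which makes an acyclic monoterpene alcohol, had 34 against 63 reads (6.71 and 12.5 RPKM), 1.86-fold lower in the mutant library (1.21 to 2.91). Unigene14589 and Unigene35500 matched the lemon enzyme for (R)-limonene, the main monoterpene of citrus peel oil. They had 13 against 11 reads (1.18-fold, 0.487 to 2.9) and 4 against 11 reads (2.76-fold lower, 0.818 to 11.9), with intervals that included 1. Only Unigene35500 of these 3 passed the 2-fold threshold, and it alone lay in the highest range of numbers.

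Sesquiterpene synthases, which use farnesyl diphosphate in the cytosol, matched 11 unigenes. Of these, 5 were 2-fold higher (45.5%) and 1 was lower (9.09%), with a median log2 ratio of 0.71. Of all kept unigenes, 8.61% were higher and 5.31% were lower, and in the middle range of numbers 29.2% were higher. The 5 higher ones, Unigene18722 (15 against 4 reads), Unigene20049 (96 against 36), Unigene18509 (33 against 13), Unigene20038 (22 against 7) and Unigene22588 (79 against 33), matched delta-cadinene synthases of cotton and all lay in the middle range of numbers. Their folds ran from 2.38 (1.57 to 3.7, Unigene22588) to 3.73 (1.19 to 15.5, Unigene18722), and the intervals of all 5 overlapped that of Unigene21708 (2.19 to 38.1). The 1 lower unigene, Unigene28162, matching aristolochene synthase of tobacco (2 against 10 reads, 5.02-fold lower, 1.07 to 47.1), lay in the highest range.

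The 5 delta-cadinene synthase unigenes of the lowest range held most of the sesquiterpene synthase reads, 2464 mutant against 2361 wild-type ones (1.04-fold, 0.982 to 1.1), and none was 2-fold different. Among them Unigene8203 had 224 against 129 reads (1.73-fold, 1.39 to 2.16), and the others were Unigene13761 (1314 against 1205), Unigene13380 (640 against 704), Unigene11145 (261 against 293) and Unigene9387 (25 against 30). The members, by contrast, had no unigene in the lowest range. Over all 21 terpene synthase unigenes, 7 were 2-fold higher (33.3%), 5 were lower (23.8%) and the median log2 ratio was 0.12. The shares over all kept unigenes were 8.61% and 5.31%. The 21 include the 7 members, which were chosen for their contrast.

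**Figure D4:**
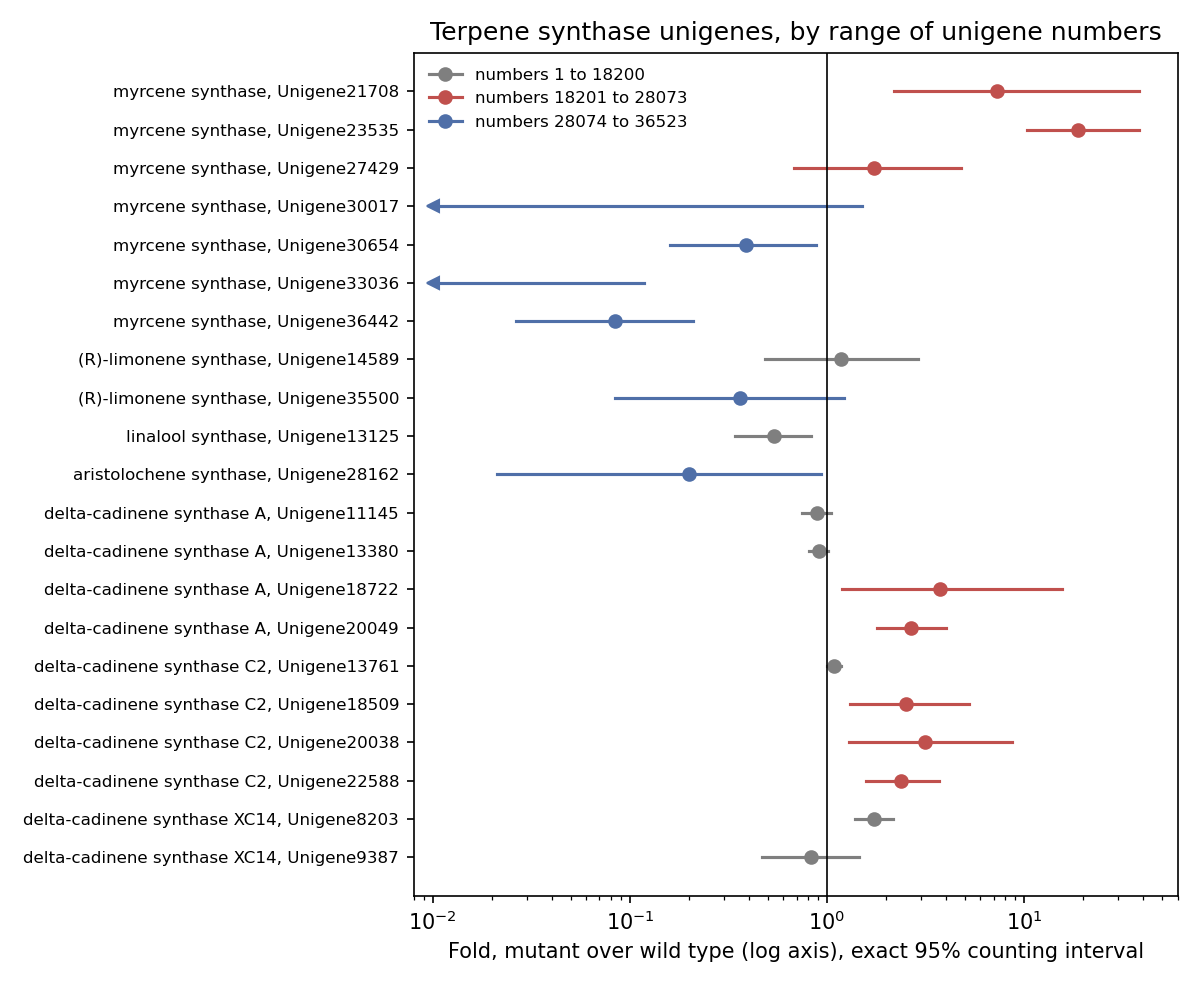
Fold of mutant over wild type (horizontal log axis) with exact 95% counting intervals for the 21 terpene synthase unigenes, coloured by range of unigene numbers; a left-pointing triangle marks a unigene with 0 mutant reads, whose interval runs down to 0. Unigene23535 lies furthest right at 18.8-fold, and the grey unigenes of the lowest range lie near 1, from 0.537-fold (Unigene13125) to 1.73-fold (Unigene8203).

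The enzymes that make the 5-carbon units of isoprenoids and join them were listed, including those for products other than monoterpenes. They were read against the 8.61% of all kept unigenes that were 2-fold higher and the 5.31% that were lower. Of the 39 kept unigenes on the lists for these enzymes, 30 lay in the lowest range of numbers. There 1.82% of kept unigenes were 2-fold higher and 0.544% were lower. By the interval, 21.1% lay above 1 there and 16.2% below it. Plastids make the 5-carbon units of monoterpenes by the methylerythritol phosphate (MEP) pathway, and 2 of its 15 kept unigenes were 2-fold higher (13.3%) and 0 lower, with a median log2 ratio of 0.08. By the interval, 5 of these 15 lay above 1 and 2 below it, beside 19.8% and 14.4% of all kept unigenes. Among the unigenes with the most reads for each step, Unigene16922 for the entry enzyme DXS was at 2103 against 2569 reads (1.23-fold lower, 1.16 to 1.3), Unigene6849 for DXR, which commits carbon to the pathway, at 1488 against 1257 (1.18-fold higher, 1.09 to 1.27), and Unigene8828 for IspH, the last enzyme, at 9042 against 8273 (1.09-fold higher, 1.06 to 1.12). The intermediate steps were Unigene14325 for IspD (626 against 533 reads), Unigene17911 for IspE (1354 against 1272), Unigene6655 for IspF (960 against 1151) and Unigene9129 for IspG (5222 against 5016). The 2 that passed the threshold were short DXS pieces in the middle range of numbers, Unigene23931 (25 against 10 reads, 2.49-fold, 1.15 to 5.81) and Unigene20693 (4 against 0 reads, with an interval that included 1).

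None of the 12 kept unigenes of the mevalonate pathway, the cytosolic route, was 2-fold different, and their median log2 ratio was 0.22. Some smaller differences exceeded counting error, with intervals above 1 for 6 of the 12 and below 1 for 2. Of all kept unigenes, 19.8% lay above 1 and 14.4% below it. HMG-CoA reductase, its rate-limiting enzyme, was at 575 against 434 reads on Unigene2870 (1.32-fold, 1.16 to 1.5). The other most-read unigenes were Unigene17801 for acetyl-CoA acetyltransferase (1262 against 1436), Unigene8801 for HMG-CoA synthase (1241 against 1053), Unigene14205 for mevalonate kinase (304 against 333), Unigene17969 for phosphomevalonate kinase (626 against 514) and Unigene8824 for the decarboxylase (1221 against 1042).

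Of 12 kept prenyl diphosphate synthase and isomerase unigenes, which join the 5-carbon units, 1 was 2-fold higher (8.33%) and 0 lower. By the interval, 1 lay above 1 and 3 below it, beside 19.8% and 14.4% of all kept unigenes. The 2-fold higher one was Unigene3314 for geranylgeranyl diphosphate synthase, with 74 against 26 reads (2.83-fold, 1.79 to 4.62), whereas the most-read unigene of this enzyme, Unigene6887, was at 1848 against 2037. Isopentenyl diphosphate isomerase was at 4070 against 4093 reads (Unigene8591), farnesyl diphosphate synthase at 357 against 377 (Unigene17751), the related protein GGR at 1683 against 2134 (Unigene8668) and hexaprenyl diphosphate synthase at 14 against 11 (Unigene14908). No unigene on the list had a best hit named geranyl diphosphate synthase, the enzyme that makes the direct substrate of myrcene synthase. The names alone do not say whether GGR or others on the list take part in that step.

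Unigenes with a best hit to a cytochrome P450 enzyme that oxidises terpenoids numbered 32, and 22 of them lay in the lowest range of numbers. Such a hit does not fix what the citrus enzyme oxidises. Of the 32, 1 was higher (3.12%) and 1 was lower, with a median log2 ratio of −0.01. By the interval, 10 lay above 1 and 4 below it, beside 19.8% and 14.4% of all kept unigenes. The higher one was Unigene22939, matching taxadiene 5-alpha hydroxylase of yew (14 against 4 reads, 3.49-fold, 1.09 to 14.5). The lower one was Unigene32200, matching ent-kaurenoic acid oxidase of the gibberellin route (4 against 12 reads), and its interval included 1. The most-read unigenes were Unigene15630 with a best hit to secologanin synthase (2606 against 2417) and Unigene17940 with one to ent-kaurenoic acid oxidase (1419 against 954). For ent-kaurene oxidase it was Unigene1163 (302 against 184), and for the yew hydroxylase Unigene12380 (87 against 52).

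**Figure D5:**
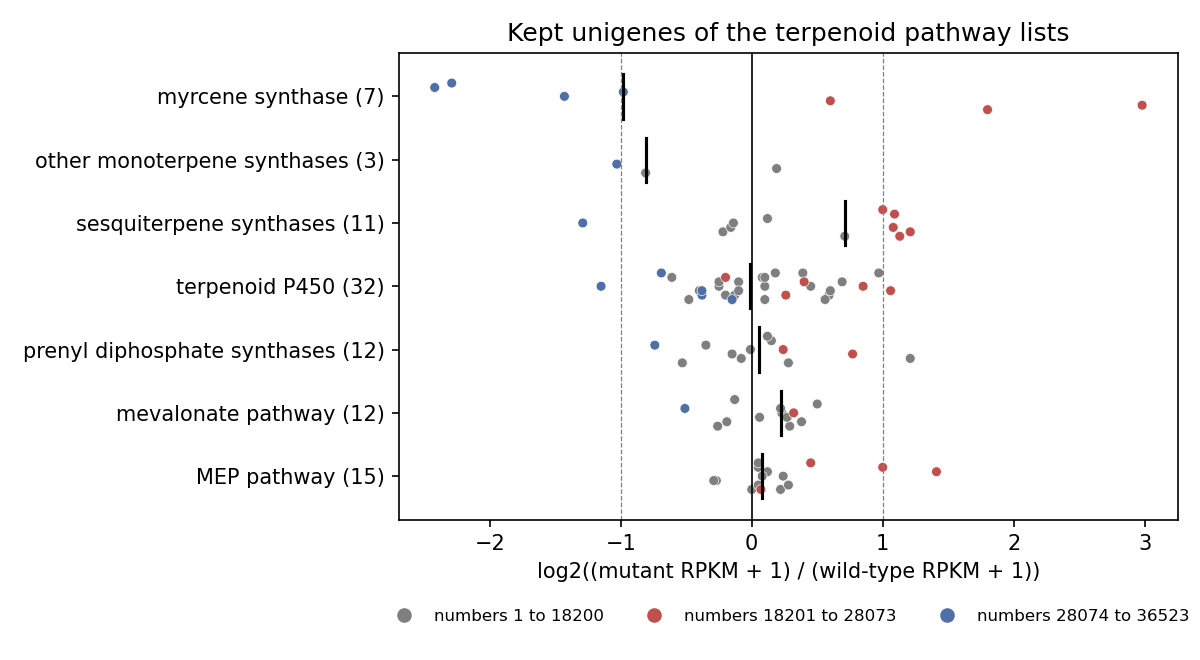
Log2 ratio of mutant to wild-type RPKM, each plus 1 (horizontal axis), of the kept unigenes of each terpenoid list (rows, with their number), coloured by range of unigene numbers; black bars mark list medians and dashed lines the 2-fold threshold. The myrcene synthase unigenes run from −2.42 to 2.98, and the mevalonate pathway unigenes stay between −0.51 and 0.5.

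The tissue label was checked against marker genes. For the shoot meristem, best hits to SHOOT MERISTEMLESS, KNAT6, CLAVATA1 and CUP-SHAPED COTYLEDON 2 were present in both libraries (25 unigenes, 3197 mutant and 3070 wild-type reads). Of the 23 kept, 1 was 2-fold higher (4.35%) and 3 were lower (13%), beside 8.61% and 5.31% of all kept unigenes. The lower ones, Unigene28699, Unigene32269 and Unigene33405, lay in the highest range of numbers, where 23.1% were lower. The intervals of Unigene28699 and Unigene32269 included 1. No KNAT1, KNAT2 or WUSCHEL entry was among the best hits. Most of the meristem marker reads fell on best hits to CLAVATA1, led by Unigene13946 (1575 against 1601) and Unigene11715 (730 against 749). The most-read hit to SHOOT MERISTEMLESS, Unigene27959, had 136 against 163. Leaf mesophyll markers, 20 unigenes for the RuBisCO small chain and chlorophyll-binding proteins, had 32559 and 34655 reads, and 0 of the 20 were 2-fold different. By the interval, 2 of them lay above 1 and 9 below it, beside 19.8% and 14.4% of all kept unigenes. Xylem markers, all 3 of them best hits to the xylem proteinase XCP1, had 2889 mutant against 1000 wild-type reads, with 1 unigene 2-fold higher and 1 lower. Unigene5337 alone held 2880 and 955 of these reads, and the others went the opposite way, Unigene32725 with 4 against 33 and Unigene33427 with 5 against 12. Best hits to fungal genera took 298507 and 296025 reads over 862 unigenes. A best hit to a fungal entry does not by itself mark fungal RNA. Unigene17969, listed above for phosphomevalonate kinase, had a yeast entry as its best hit. Whether the reads on such unigenes came from fungi or from the tree was not tested. The part of the marker differences in the myrcene synthase levels was not tested.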

How the data were processed

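One deposited table held both libraries. Per the file headers, the authors deposited raw read counts, RPKM values, unigene lengths and Swiss-Prot best hits with E-values (up to 1e-05; 18809 unigenes). RPKM recomputed from the counts, lengths and header totals matched within 0.0001 for 100% of values in both libraries. The assembler, aligner, counting tool, strand setting and treatment of reads shared by near-identical copies are not named in any source used here, so reads may be split among these related unigenes.

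Unigenes were kept at an RPKM of at least 1 in at least 1 library (34255 kept, 1520 set aside); the pseudocount was 1 RPKM. Folds came from raw counts scaled by library totals, with exact Clopper-Pearson 95% intervals, and RPKM intervals were exact Poisson. These cover counting error only, since each group was 1 library. Reads carried no molecular identifiers, so reads copied from the same molecule could not be told apart and the intervals may be too narrow. A library with 0 reads was set to a floor of 3 reads. With 1 library per group no test was made. Number ranges came from drops in unigene length (window of 200 unigenes, minimum drop of 1 on the log2 scale), pooled after the ratios were seen.

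The members and lists were chosen with earlier results of these data known. The list entries were settled after a listing that showed reads, when HMG-CoA lyase, tRNA isopentenyltransferases, COQ2, archaeal-type ether lipid prenyltransferases and menthol and geraniol dehydrogenases were left out and the yew hydroxylase was moved from the terpene synthases to the P450 list. Named unigenes were all terpene synthases, the most-read unigene of each pathway enzyme, pathway unigenes at 2-fold with an interval excluding 1, and the 3 nearest to each member; Unigene20693, Unigene32200, Unigene27895 and the markers were named afterwards. The scripts (Python 3.11.15, pandas 2.3.3, scipy 1.17.1) were tested on simulated data.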

Additional observations from a re-analysis of the deposited data

How the results depend on the processing

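No paired analysis was possible because each group is 1 library, and for the same reason no replicate could be left out. With a pseudocount of 0.1 the log2 ratios were 2.69 for Unigene21708, 4.04 for Unigene23535, −4.17 for Unigene30017, −5.48 for Unigene33036 and −3.35 for Unigene36442. With a pseudocount of 5 they were 0.79 for Unigene21708, 1.59 for Unigene23535, −0.42 for Unigene30017, −0.9 for Unigene33036 and −1.06 for Unigene36442, so that Unigene21708, Unigene30017 and Unigene33036 no longer passed 2-fold. Centring on the median ratio gave −1.48 for Unigene30017 and −2.47 for Unigene33036. Unigene30654 passed 2-fold with a pseudocount of 0.1 (−1.31), after centring (−1.03) and after trimmed-mean scaling (−1.02). Against 2 higher and 3 lower members, there were thus 2 and 4 in these 3 settings, 1 and 1 with a pseudocount of 5 or a minimum RPKM of 5, and 1 and 2 at a 4-fold threshold. The fold of the summed member reads reversed to 0.383 without Unigene23535, an alternative added after the data were seen.

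Of the terpene synthases, 1 was higher and 1 lower with a pseudocount of 5, 4 and 1 with a minimum RPKM of 5, and 1 and 2 at a 4-fold threshold. Those lower numbered 2 at 500 bases or more and also 2 without the 7 members. In the lowest number range 0 were higher and 0 lower, in the middle range 0 were lower (median log2 ratio 1.11), and in the highest range 0 were higher (median −1.36). Of the MEP, mevalonate and prenyl diphosphate unigenes together, 3 were higher and 0 lower. This became 1 lower with a pseudocount of 0.1, 0 higher with a pseudocount of 5 or a 4-fold threshold, and 1 higher at 500 bases or more, with the longest unigene per entry, or in the lowest range. By the interval it was 12 higher and 7 lower, beside 19.8% and 14.4% of all kept unigenes. The median of these unigenes was 0.45 in the middle range and −0.62 in the highest range, where 0 were higher.

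Over all kept unigenes, 2948 were higher and 1818 lower, with a median of 0.048. These were 4579 and 3165 with a pseudocount of 0.1, 280 and 92 (median 0.037) with 5, 1328 and 597 with a minimum RPKM of 5, 249 and 138 at 4-fold, and 6768 and 4916 by the interval. The median was 0.0 after centring and −0.015 after trimmed-mean scaling. The lowest range had 331 higher and 99 lower (median 0.024), the middle range 34 lower (median 0.66) and the highest range 60 higher (median −0.55). The cause of these shifts was not tested. Depth limits Unigene30017 and Unigene27429, which had 4 and 22 reads in all.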
